A study of Mus musculus with 3 samples.

Results

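The 10 genes that build, sulfate and trim heparan sulfate were followed in kidney rudiments of Fgfrl1-/- and wildtype mouse embryos at E12.5. They are Ext1, Ndst1, Hs2st1, Hs6st1, Hs6st2, Hs3st1, Hs3st3a1, Hs3st3b1, Sulf1 and Sulf2, and they were found by searching the gene names in the array files for these 10 symbols. All 10 genes were present, with 17 of the 41174 probes that are no controls. Fgfrl1 is a receptor of the Fgf receptor family that binds heparin and Fgf ligands, and the study asked which genes act downstream of it while the first nephrons form. RNA came from 3 pools of Fgfrl1-/- rudiments and 3 pools of wildtype rudiments, all of strain C57BL/6, with 6 to 9 rudiments in a pool. Fgfrl1 was inactivated in the mutants as whole animals, and wildtype littermates served as controls according to the methods. Each array carried 1 Fgfrl1-/- pool marked with Cy3 and 1 wildtype pool marked with Cy5. With 0 dye swaps, the colour and the genotype of a pool cannot be told apart.

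Heparan sulfate is a long sugar chain on proteoglycans of the cell surface and the extracellular matrix. Exostosins such as Ext1 polymerise the chain in the Golgi, and the enzymes of the Ndst family exchange acetyl groups for sulfate on glucosamine, which opens the chain to further modification. Hs2st1 then sulfates the uronic acids, while the Hs6st and Hs3st families sulfate glucosamine at the 6-O and the 3-O position. Sulf1 and Sulf2 act outside the cell and remove 6-O-sulfate again. Fgf and Wnt ligands bind to the sulfated stretches, Fgf receptors need heparan sulfate as a co-receptor, and mouse embryos without Hs2st1 are known to form no kidneys.

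Every value rests on a probe of 60 bases, and for 3 genes the probe sequence itself bears on what was measured. For Hs3st3b1, the whole probe is shown, because the files assign it to the transcripts of both Hs3st3b1 and Hs3st3a1. For Hs3st3a1, the first 30 bases of the probe that is assigned to this gene alone are shown. For Sulf2, 30 of the 40 bases shared by the gene's 2 probes are shown, with the only base of the overlap at which they differ in capitals.
Hs3st3b1: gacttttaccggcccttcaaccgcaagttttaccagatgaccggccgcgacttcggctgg
Hs3st3a1: atgtacatgcctcttaggaagactaatacg
Sulf2 A_52_P193925: tgaaatcccGcttttcaagagtcgcggtgt
Sulf2 A_51_P133229: tgaaatcccActtttcaagagtcgcggtgt
Read 5′ to 3′ in its first frame, the Hs3st3b1 probe holds 0 stop codons, as do probes of Hs2st1, Hs3st1, Hs6st2, Ndst1 and Sulf1. Whether it lies in coding sequence was not tested. The 2 Sulf2 probes overlap by 40 bases and differ there by the substitution G30A, counted from 1 at the 5′ end of A_52_P193925. No other probe of the 10 genes shared a run of 20 bases with another probe of the array.

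On the arrays as a whole, Fgfrl1 itself had a log2 ratio of Fgfrl1-/- over wildtype of -1.21, -1.51 and -1.83 on arrays 1, 2 and 3, lower in the Fgfrl1-/- pool of every array. Array 1 lay on another slide than arrays 2 and 3, and its log2 ratios correlated with theirs across all probes with a Pearson's r of 0.11 and 0.22, whereas arrays 2 and 3 correlated with 0.71 (probes are not independent replicates). Results that rest on array 1 are therefore also given without it. That fit rests on arrays 2 and 3 of the same slide, and 18.6% of all probes passed limma's test in it. Markers of the kidney were present, with 6 of 7 cap mesenchyme genes and 6 of 7 genes of the ureteric epithelium well above background in every pool, while Ret was not well above background in any. The cap mesenchyme list summed to a normalised brightness of 14596 to 15534 in the Fgfrl1-/- and 18062 to 19234 in the wildtype pools, with 1 gene, Cited1, past limma's adjusted p and lower. At an unadjusted p below 0.05 were 2 of its 7 genes, Cited1 and Eya1, with log2 fold changes of -0.78 and -0.42. Negative values were found for 6 of the 7. The ureteric list summed to 22678 to 27589 against 21159 to 22523, with 1 gene, Wnt11, past limma's adjusted p and lower. Of its 7 genes, 5 were at an unadjusted p below 0.05. Beside Wnt11, these were Wnt9b, Gata3, Calb1 and Wnt7b, all higher, with log2 fold changes of 0.73, 0.43, 0.37 and 0.24. Of the other lists, 6 of 7 genes of the renal vesicle, the first epithelial stage of the nephron, passed limma's test at an adjusted p below 0.05 with lower values in the Fgfrl1-/- pools, and the normalised brightness of the list summed to 1742 to 2701 in the Fgfrl1-/- and 6105 to 6581 in the wildtype pools. The stromal list (6 genes, 2 past limma's adjusted p and higher, 5 at an unadjusted p below 0.05, all 5 higher) summed to 111644 to 123866 against 68483 to 75545. The 2 were Pdgfra and Col1a1, with log2 fold changes of 1.02 and 0.84, while Tbx18 had -0.15. For Col1a1, the paper found no difference by qPCR at E12.5. The macrophage list (5 genes, 0 past limma's adjusted p, all 5 at an unadjusted p below 0.05 and higher) summed to 3803 to 7278 against 2766 to 3725. The part of these shifts in the values of the heparan sulfate genes was not tested, and in pooled tissue fewer cells of a type and less RNA per cell cannot be told apart.

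None of the 17 probes passed limma's test at an adjusted p below 0.05, either lower or higher in the Fgfrl1-/- rudiments. Over all probes, 0.687% passed, 0.398% lower and 0.289% higher. At an unadjusted p below 0.05, 5 of the 17 probes stood apart from 0, namely those of Hs3st3b1, Hs3st3a1 and Hs3st1, with lower values, and 1 probe each of Hs2st1 and Sulf2, with higher values (15.9% of all probes). The log2 ratio had 1 sign on all 3 arrays for 9 of the 17 probes, 3 of them lower and 6 higher, as it had for 38.3% of all probes. The median absolute log2 fold change was 0.14 for the 17 probes and 0.089 for all probes.

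**Figure D1:**
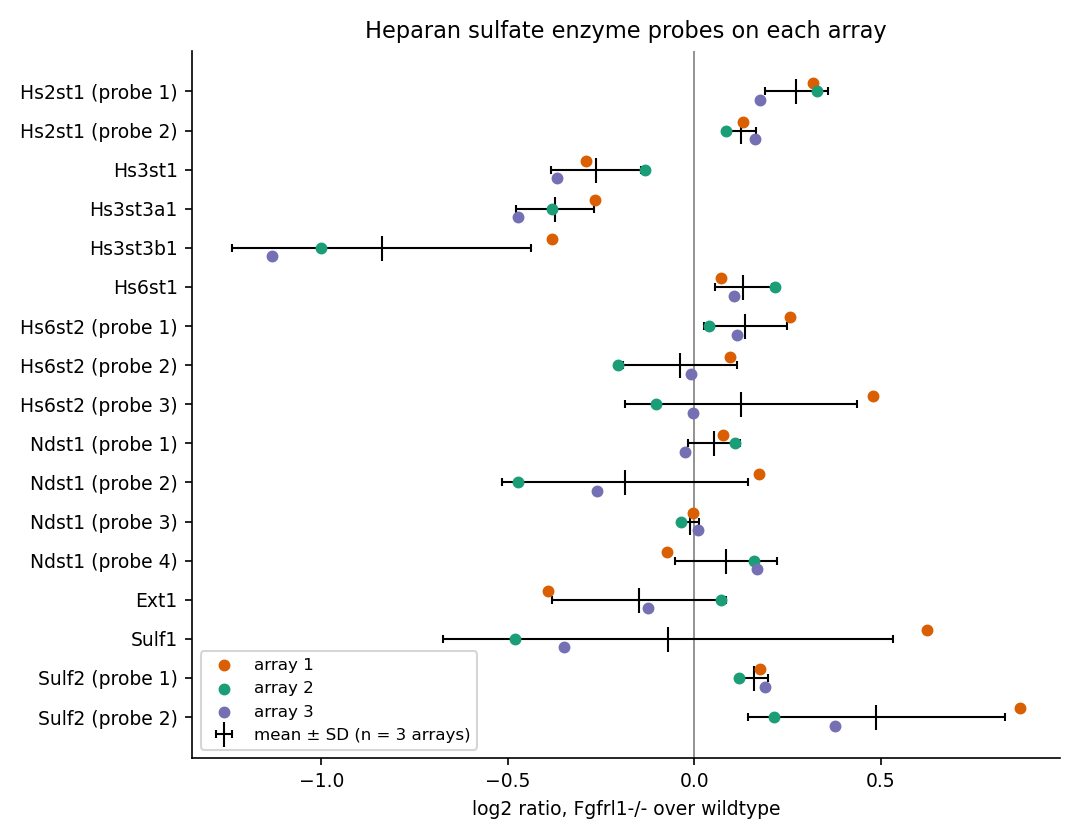
Log2 ratio of Fgfrl1-/- over wildtype (x axis) for each of the 17 probes (y axis, probes of a gene are numbered). Coloured points are arrays 1, 2 and 3, and black bars give the mean and SD. Hs3st3b1 lies farthest below 0, with -0.38 on array 1 and -1.0 and -1.13 on arrays 2 and 3, and Sulf1 lies at 0.62 on array 1 but at -0.48 and -0.35 on the others.

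The 3-O-sulfotransferases were the members with the lowest values, and the log2 fold changes of Hs3st1, Hs3st3a1 and Hs3st3b1 were negative under each of the 18 alternatives. They make the rarest modification of the chain, Hs3st1 being known for the antithrombin binding site and the Hs3st3 enzymes for the site bound by herpes virus glycoprotein D. For Hs3st3b1 (chr11:63705328-63705387 on the minus strand of mm8), the brightness of the Fgfrl1-/- pools was 389, 172 and 232 on arrays 1, 2 and 3, and that of the wildtype pools was 458, 822 and 772, before any normalisation. The wildtype pool was brighter on every array, with the smallest gap on array 1. The medians over all spots were ordered alike, at 97, 60 and 68 in the Cy3 and 99.5, 113 and 107.5 in the Cy5 channel. After normalisation, the log2 ratios were -0.38, -1.0 and -1.13, and the levels of the genotypes did not overlap. The mean was -0.84 ± 0.402 (SD, n = 3), which is 1.79-fold lower in the Fgfrl1-/- rudiments (limma, 95% interval of the log2 fold change -1.23 to -0.45, adjusted p = 0.0896 over all probes). With 1 probe for each current RefSeq gene, a set of 19754 genes of which 3.66% passed, the same values gave an adjusted p of 0.0476. The adjusted p thus lay on either side of the threshold, from 3.1e-06 to 0.574 over the alternatives, while the log2 fold change stayed between -1.22 and -0.69. Without array 1 it was -1.07 (adjusted p = 3.1e-06), in a fit in which 18.6% of all probes passed the test. Since the files list this probe for Hs3st3a1 as well, RNA of the 2 genes cannot be told apart by it. The paper lists Hs3st3b1 among its genes with reduced expression, chosen by a fold change cutoff and a p-value below 0.05. An adjustment of that p-value is not stated there, so the threshold differs from the adjusted one used here.

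The probe that belongs to Hs3st3a1 alone (chr11:64338617-64338676, plus strand of mm8) was dim. Its brightness was 35.5, 33 and 27 in the Fgfrl1-/- pools, over a local background of 19, 23 and 18.5, and 91.5, 102 and 91 in the wildtype pools, over 72, 54 and 47. It was well above background in the wildtype pools of all 3 arrays, but in the Fgfrl1-/- pool of array 1 only. The log2 ratios of -0.27, -0.38 and -0.47 were alike on the 3 arrays, with no overlap between the genotypes, and gave -0.37 ± 0.104 (SD, n = 3, limma, adjusted p = 0.101). The size moved with the processing, from -2.76 with the ratios of the scanner software to -0.32 without array 3, and the adjusted p ran from 0.00166 to 0.694 over all alternatives. A normexp offset of 0 gave -1.05. Without background subtraction the value was -0.88 and passed the test (adjusted p = 0.0426), and without array 1 it was -0.43 (adjusted p = 0.00173). Hs3st1 (chr5:39902337-39902396, minus strand of mm8) had log2 ratios of -0.29, -0.13 and -0.37. All 3 were negative, but the levels of the genotypes overlapped between arrays. The mean was -0.26 ± 0.121 (SD, n = 3, limma, adjusted p = 0.198), and without array 1 it was -0.25 (adjusted p = 0.0468, and 0.0122 to 0.837 over all alternatives). For both Hs3st3a1 and Hs3st1, the fit without array 1 was one in which 18.6% of all probes passed. The Hs3st3a1 and Hs3st3b1 probes were 2 of the 17 whose levels did not overlap with lower values in the Fgfrl1-/- pools, which held for 7.18% of all probes. The other family members on the array, Hs3st2 and Hs3st5, were well above background in none of the wildtype pools, and their log2 fold changes were -0.045 and 0.028.

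**Figure D2:**
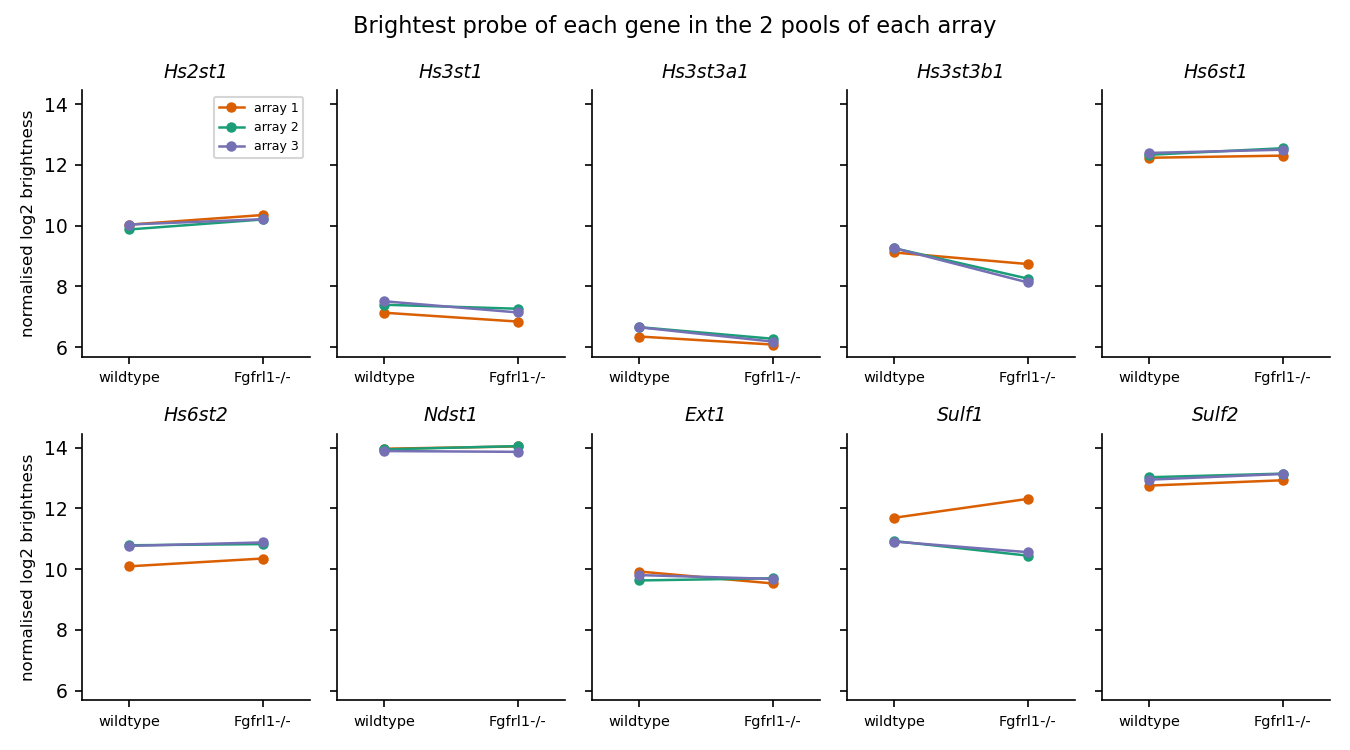
Normalised log2 brightness (y axis, shared by all panels) of the brightest probe of each of the 10 genes in the wildtype and the Fgfrl1-/- pool of each array (x axis). Lines join the pools of 1 array, and heights of different genes are not comparable because probes differ. The 3 lines of Hs3st3b1 all slope down, least on array 1, while the line of Sulf1 slopes up on array 1 and down on arrays 2 and 3.

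For Ext1, which with Ext2 forms the polymerase, the log2 ratios were -0.39, 0.072 and -0.13, with a mean of -0.15 ± 0.233 (SD, n = 3, limma, adjusted p = 0.583). The arrays disagreed in sign, the interval of -0.41 to 0.11 holds 0, and without array 1 the value was -0.027. Centring on the median in place of loess gave -0.37. Ext2 had a log2 fold change of 0.025, and the related Extl1, Extl2 and Extl3 had -0.076, -0.18 and -0.064.

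Ndst1, the N-deacetylase and N-sulfotransferase that sets the pattern of later sulfation in most tissues, was measured by 4 probes. The brightest of them, at percentile 98.4 of all probes by brightness, gave log2 ratios of 0.076, 0.11 and -0.026, with a mean of 0.052 ± 0.0699 (SD, n = 3, limma, adjusted p = 0.804, interval -0.13 to 0.23), and -0.42 with median centring. This brightest probe is annotated with 0 RefSeq transcripts, whereas each other Ndst1 probe is annotated with 1. A further probe gave 0.17, -0.47 and -0.26, with a mean of -0.19 ± 0.329 (SD, n = 3), and without array 1 it had -0.37 (adjusted p = 0.00641, and up to 0.968 over all alternatives). In the fit without array 1, 18.6% of all probes passed. The other 2 probes were near the middle of all probes in brightness, at 95, 47 and 59 and at 80, 55 and 53 in the Fgfrl1-/- pools. The former was well above background in 2 of these 3 pools. Their means were -0.011 and 0.085 (-0.014 and 0.16 without array 1). Probes of this gene therefore differed from each other by up to 0.63 on the log2 scale on array 2, more than the mean of any of them differed from 0. Ndst2, its relative, had log2 ratios of 0.20, 0.21 and 0.36, with a mean of 0.26 (adjusted p = 0.172 over genes), while Ndst3 and Ndst4 were well above background in none of the wildtype pools.

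Hs2st1, the 2-O-sulfotransferase, had higher values in the Fgfrl1-/- pool of every array with both of its probes, though centring on the median in place of loess gave 0.028 for the brighter and -0.053 for the second probe. The brighter probe (chr3:144371562-144371621, minus strand of mm8) had a brightness of 1125, 770 and 1134 in the Fgfrl1-/- and of 796, 1407 and 1449 in the wildtype pools. These raw values order the genotypes differently on array 1 than on arrays 2 and 3, where the median over all spots was 60 and 68 in the Cy3 and 113 and 107.5 in the Cy5 channel. After normalisation the log2 ratios were 0.32, 0.33 and 0.18, and the mean was 0.27 ± 0.0856 (SD, n = 3, limma, adjusted p = 0.164, interval 0.09 to 0.46). The second probe (chr3:144369313-144369372, minus strand) gave 0.13, 0.085 and 0.16, with a mean of 0.13 ± 0.0391 (SD, n = 3, limma, adjusted p = 0.46). The levels of the genotypes did not overlap for either probe, which with 1 Sulf2 probe made 3 of 17 with higher values in the Fgfrl1-/- pools, beside 6.76% of all probes. Without array 1 the brighter probe had 0.25 and an adjusted p of 0.0358, which ran from 0.00679 to 0.979 over all alternatives. The fit without array 1 passed 18.6% of all probes.

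For the 6-O-sulfotransferases no probe stood apart from 0, even at an unadjusted p below 0.05. Hs6st1 (chr1:36050926-36050985, plus strand of mm8), at percentile 94.9 of all probes by brightness, had log2 ratios of 0.071, 0.22 and 0.11, with a mean of 0.13 ± 0.0756 (SD, n = 3, limma, adjusted p = 0.467, interval -0.049 to 0.31), and -0.25 with median centring. Hs6st2 was measured by 3 probes on chromosome X. The brightest gave 0.26, 0.039 and 0.11, with a mean of 0.14 ± 0.111 (SD, n = 3, limma, adjusted p = 0.481), and 0.077 without array 1. The other 2 gave means of -0.04 (-0.11 without array 1) and 0.12. The latter came from 0.48 on array 1 and -0.10 and -0.0028 on arrays 2 and 3, and its probe was well above background in 2 of the 3 Fgfrl1-/- pools. Without array 1 its mean was -0.053. This probe lies at chrX:47921686-47921745, apart from the others at chrX:47632469-47632528 and chrX:47633718-47633777. It is annotated with 0 RefSeq transcripts, whereas each of the others is annotated with 2. The third member of the family, Hs6st3, had a log2 fold change of -0.10.

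Of the extracellular sulfatases, Sulf1 had the largest SD between arrays of all 17 probes. For Sulf1 (chr1:12845435-12845494, plus strand of mm8), the brightness was 3956, 923 and 1453 in the Fgfrl1-/- pools and 2388, 3052.5 and 2726.5 in the wildtype pools. The Fgfrl1-/- pool was the brighter on array 1 and the dimmer on arrays 2 and 3, and the log2 ratios of 0.62, -0.48 and -0.35 kept this split. The mean of -0.069 ± 0.603 (SD, n = 3, limma, adjusted p = 0.932, interval -0.62 to 0.48) thus describes none of the arrays. Without array 1 the log2 fold change was -0.42 and passed limma's test (adjusted p = 0.00231), as did 18.6% of all probes in that fit. Over all alternatives the adjusted p ran up to 0.998. Median centring gave -0.38 with all 3 arrays.

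Both probes of Sulf2 had higher values in the Fgfrl1-/- pool of every array, but by unequal amounts, and median centring gave -0.25 for the first and 0.086 for the second. Probe A_52_P193925 (chr2:165765372-165765431, minus strand of mm8) gave log2 ratios of 0.18, 0.12 and 0.19, with a mean of 0.16 ± 0.0371 (SD, n = 3, limma, adjusted p = 0.345). Probe A_51_P133229, which overlaps it and carries the differing base shown above, gave 0.87, 0.21 and 0.38, with a mean of 0.49 ± 0.344 (SD, n = 3, limma, adjusted p = 0.178). The 2 probes were 0.70 apart on array 1 but 0.095 and 0.19 apart on arrays 2 and 3. Without array 1 the second probe had a mean of 0.29 (adjusted p = 0.0174, and 5.8e-05 to 0.95 over all alternatives), in the fit in which 18.6% of all probes passed.

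**Figure D3:**
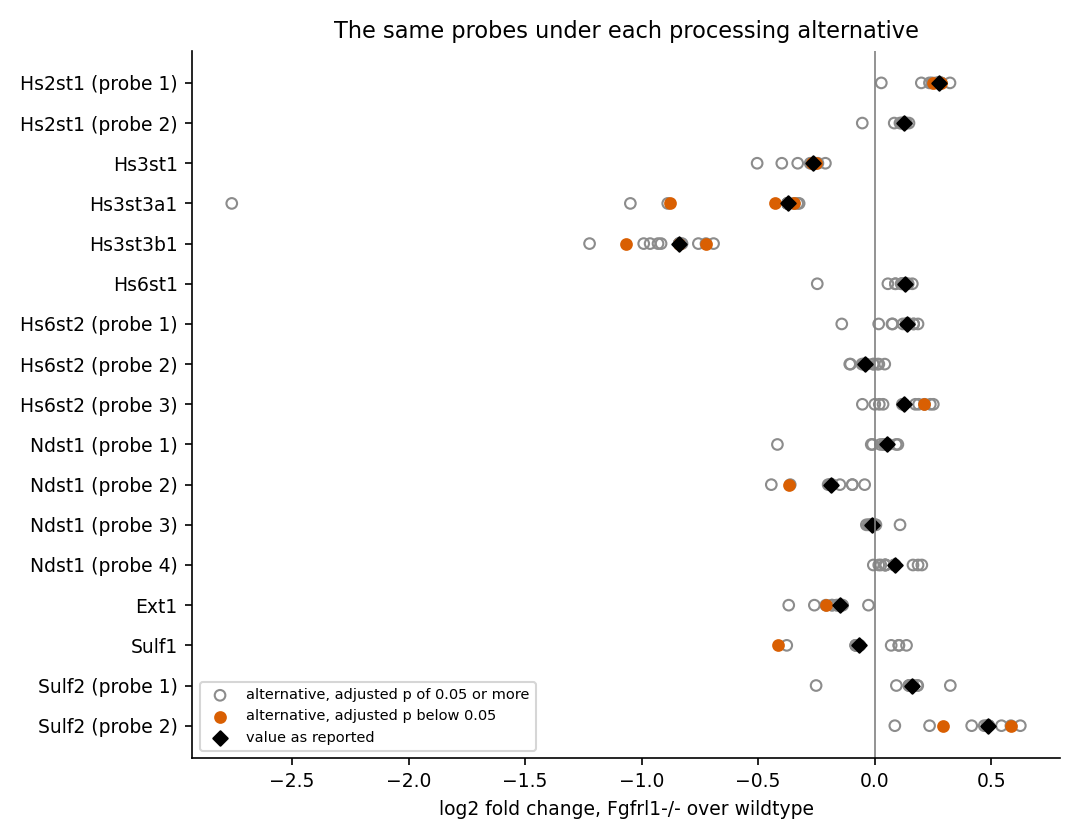
Log2 fold change of each of the 17 probes (x axis) as reported (black diamonds) and under each alternative way of processing (circles, filled where the adjusted p was below 0.05). Hs3st3b1 stays between -1.22 and -0.69, Hs3st3a1 reaches -2.76 with the ratios of the scanner software, and Sulf1 lies on both sides of 0.

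The rest of the pathway was read from 35 of 38 further genes that could be matched to the array (Hs3st4, Hs3st6 and Hpse2 could not be matched), each by its brightest probe. Together with the 10 enzymes, 0 of 45 genes passed limma's test at an adjusted p below 0.05, beside 0.98% of all 27745 gene names, while 10 of the 45 were at an unadjusted p below 0.05, as were 16.5% of all gene names. Among the 35 further genes, 24 had positive and 11 had negative values, with a median log2 fold change of 0.028 (0.0071 over all gene names, of which 52.3% were positive). The 6 at an unadjusted p below 0.05 were all positive, a share near that of all gene names. The median was 0.12 without background subtraction, 0.11 without dim probes and 0.10 with the authors' table, and the split turned to 13 positive and 22 negative, with a median of -0.067, when arrays were centred on their median in place of loess. Ugdh, which makes the UDP-glucuronic acid for the chain, had the highest, with log2 ratios of 0.56, 0.41 and 0.36, with a mean of 0.44 ± 0.102 (SD, n = 3, limma, adjusted p = 0.0758 over gene names). With 1 probe for each RefSeq gene its adjusted p was 0.0442, so that Ugdh and Hs3st3b1 were the 2 of 45 genes past the threshold in that fit, a share near the 3.66% of all RefSeq genes. The others were Glce with 0.31, the epimerase that makes iduronic acid, Ndst2 with 0.26, Xylt2 with 0.25, which starts the linker on the protein, Ids with 0.22, a lysosomal sulfatase, and Papss1 with 0.21, which makes the sulfate donor. By role, the medians were -0.046 for 10 genes of the linker and the chain, 0.14 for 9 genes of sulfate donor and sugar supply, and 0.16 for 9 genes of degradation. No median is given for the 4 genes of N-deacetylation and epimerisation, of which 2 were well above background in all pools, or for the 3 further sulfotransferases, of which 0 were.

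Chondroitin and dermatan sulfate, the other sulfated chains that start from the same linker, served as a comparison. Limma's test passed 0 of 16 of their genes, with 2 at an unadjusted p below 0.05, beside 16.5% of all gene names. Dsel, a dermatan sulfate epimerase, had log2 ratios of 0.61, 0.37 and 0.45, with a mean of 0.48 ± 0.125 (SD, n = 3, adjusted p = 0.0721 over gene names). Chst7, a 6-O-sulfotransferase of chondroitin, had -0.52, -0.34 and -0.16, with a mean of -0.34 ± 0.179 (SD, n = 3, adjusted p = 0.157). The median of the 16 genes was 0.032.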

How the data were processed

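RNA of 3 Fgfrl1-/- and 3 wildtype pools was hybridized in pairs to 3 Agilent whole mouse genome arrays. Per array, the authors deposited a file of Agilent Feature Extraction with raw median intensities of spots and local background, and a log10 ratio of wildtype over Fgfrl1-/- from signals processed by the software. The labels give its version as 10, whereas the file headers give 9.5.3.1 on array 1 and 10.5.1.1 on the other two. They also deposited a table of log2 ratios made with R and Bioconductor. Its sign is Fgfrl1-/- over wildtype by comparison with the scanner ratios (r of -0.70 to -0.72, slope in size over bright probes 0.92 to 1.06), its column medians are -0.018, 0 and 0.003, and the correction and normalisation behind it are not given in the sources used here.

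Here, median intensities were corrected with normexp and an offset of 50, and ratios were normalised by loess (limma 3.58.1, R 4.3.3), with 1639 control spots of each array at weight 0. Spots flagged as outliers were left out, spots of a probe averaged, and the log2 ratio tested against 0 with lmFit and eBayes, 2-sided, with Benjamini-Hochberg adjustment over all 41174 probes. Each ratio pairs the pools of 1 array. Levels in single channels were scaled with Aquantile, and the levels of 41158 probes were compared. The pathway genes were tested by the brightest probe of each of 27745 gene names. On simulated data drawn like these, probes with a log2 change of 1 were recovered with a share of 0.74 and those of 2 with 0.97, with a false share of 0.05. The largest change of a member probe was -0.84, so these shares do not tell how often changes of the members' size are recovered. Probe positions are those of the files (mm8), and no annotation of that build was used. RefSeq names of GRCm38.p6 were used for an alternative and to match renamed pathway genes. Probe sequences are those of the files. Precision is limited by the small number of arrays, and p-values measure the spread of the log2 ratio between arrays. That spread joins differences between pools, hybridizations, slides and software versions. A constant difference between the dyes does not enter it.

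All probes of the 10 genes, the pathway genes with an adjusted p below 0.05, the other genes of the members' families and Fgfrl1 were to be named. Other pathway genes (Ugdh, Glce, Xylt2, Ids, Papss1, Dsel and Chst7) were chosen after their values were seen. The members and all lists were chosen with earlier results of these data known. The values were computed again under 18 alternatives: background, normalisation, dim and outlier spots, the variance model, the authors' table, the unit tested, separate channels, 1 value per slide, the slide as a term and each array left out.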

Additional observations from a re-analysis of the deposited data

How the results depend on the processing

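Over 18 alternatives and the 17 probes, 285 log2 fold changes were compared with the reported ones: 250 kept their direction and their side of the threshold, 16 newly passed it and 19 changed sign. The slide as a fixed term and 1 probe per RefSeq gene were chosen after seeing the data.

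The 0 probes called lower became 1 without background subtraction (Hs3st3a1), 1 with 1 probe per RefSeq gene (Hs3st3b1), 4 with the slide as a fixed term (Hs3st1, Hs3st3a1, Hs3st3b1 and Ext1), and 0 to 5 when 1 array was left out. The 0 called higher became 3 with the slide as a term (Hs2st1, Sulf2 and Hs6st2) and 0 to 2 with 1 array left out. Without array 1, probes of Hs3st1, Hs3st3a1, Hs3st3b1, Sulf1 and 1 of Ndst1 passed, lower, and 1 each of Hs2st1 and Sulf2, higher. The 0 pathway genes became 1 without background subtraction and 1 with the authors' table (both Hs3st3a1), and 1 with median centring and 1 in the separate-channel fit (both Hs3st3b1). Of the 45 genes, 2 passed per RefSeq gene (Hs3st3b1 and Ugdh), 15 with the slide as a term and 0 to 13 with 1 array left out (13 without array 1). Without array 1, 18.6% of all probes passed, and with the slide term 25%. Both fits rest on 1 residual degree of freedom, and the latter assumes that array 1 varies like the others. Over all probes, the 283 calls (164 lower, 119 higher) became 7666 without array 1, 10281 with the slide as a term, 463 with separate channels, 189 without background subtraction, 93 with median centring (91 lower, 2 higher), 82 after quantile normalisation (60 lower, 22 higher), 60 without dim probes, 36 with the authors' table (32 lower, 4 higher), 6 with trended and robust variances and 723 per RefSeq gene. They became 0 with a normexp offset of 0, with the scanner software's ratios, with 1 value per slide and without array 2 or 3, while 4852, 6118, 3450, 3712 and 3141 probes had an unadjusted p below 0.05.

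Changes of sign concerned probes with small or split values. With median centring in place of loess the log2 fold change was -0.053 for Hs2st1 (A_52_P564132), -0.25 for Hs6st1, -0.14 for Hs6st2 (A_52_P599317), 0.11 and -0.42 for Ndst1 (A_51_P189142 and A_51_P236314) and -0.25 for Sulf2 (A_52_P193925). Hs6st2 (A_51_P337451) had 0.018 without background subtraction, 0.011 in the authors' table and -0.11 to 0.043 with 1 array left out (0.043 without array 2), and A_52_P244586 had -0.053 to 0.24 (-0.053 without array 1). For Ndst1, A_51_P189142 had 0.0053 without background subtraction and -0.021 to 0.0022 with 1 array left out (0.0022 without array 2), A_51_P236314 had -0.0093 after quantile normalisation and -0.015 as the mean of its probes, and A_52_P135469 had -0.0060 with the scanner software's ratios. Sulf1 had 0.10 with 1 value per slide and with the slide as a term, 0.14 without array 2 and 0.071 without array 3. The cause of these changes was not tested. In the separate-channel fit (no replicate block, intraspot correlation 0.452), Hs3st3b1 kept -0.84 with an adjusted p of 0.0577 over probes.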
